A study of Homo sapiens with 2 samples.

Results

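Prostate surface antigens that serve as targets of therapy were followed in LNCaP, a line of human prostate cancer cells from a lymph node metastasis that is known for its response to androgen. The antigens were chosen by gene name. Of 5 named genes, FOLH1, STEAP1, STEAP2 and EPCAM were found among the 12075 genes of the deposited table, and STEAP4 was not analysed here. RNA-seq was made from 2 libraries. The oe library came from LNCaP cells of the labelled genotype WT treated with CM of oe-YY1 M2 macrophages, and the nc library from LNCaP cells of the same genotype label treated with CM of nc-YY1 M2 macrophages. The treatment labels also say cocultured, and the time label was Day 0 for both. The labels spell out neither oe, nc nor CM, and give no dose or duration. YY1 is a zinc finger transcription factor, and the series concerns its action in tumor-associated macrophages on prostate cancer cells, with IL-6 as a link.

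FOLH1 encodes prostate-specific membrane antigen (PSMA), a membrane peptidase that removes glutamate from folates and from a neuropeptide, and is the target of PET tracers and radioligand therapy in prostate cancer. The STEAP proteins are transmembrane proteins first described in prostate. STEAP2, STEAP3 and STEAP4 reduce iron and copper with electrons from NADPH, while STEAP1, a target of antibody and T cell engager therapies, lacks the NADPH-binding domain of the others. EPCAM encodes an epithelial adhesion molecule that is cleaved by ADAM17 and gamma-secretase, is targeted by antibodies and is used to capture circulating tumour cells.

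With 1 library per group, no difference between the libraries has a replicate check, none has a p-value, and the spread of any single value is unknown. Values are FPKM (fragment counts scaled by the authors to transcript length and library size), as deposited. FPKM holds no read counts, so the depth is unknown. Log2 ratios are differences of log2(FPKM + 1), oe minus nc, and the size rule for calling a gene higher or lower was a 2-fold difference on this scale. All 4 genes passed the filter of 1 FPKM in the higher library, and each also reached 1 FPKM in both libraries. Over all 11126 genes that passed the filter the median log2 ratio was -0.01. FPKM of all listed genes summed to 198520 in the oe library and 216207 in the nc library.

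The sequences at the RefSeq gene starts introduce the STEAP genes, because STEAP2 is the antigen past the 2-fold size rule and STEAP1 has a near copy, STEAP1B, with which reads could be shared. RefSeq promoter windows (build GRCh38.p14, 250 bases before to 50 bases after a start) matched STEAP1 and STEAP2 of the 4 genes. STEAP2 has a window for each of 2 starts, which lie 2.08 kb apart, on the plus strand at chr7:90211490-90211789 and chr7:90213570-90213869. Capitals mark CG dinucleotides.
STEAP2, first start: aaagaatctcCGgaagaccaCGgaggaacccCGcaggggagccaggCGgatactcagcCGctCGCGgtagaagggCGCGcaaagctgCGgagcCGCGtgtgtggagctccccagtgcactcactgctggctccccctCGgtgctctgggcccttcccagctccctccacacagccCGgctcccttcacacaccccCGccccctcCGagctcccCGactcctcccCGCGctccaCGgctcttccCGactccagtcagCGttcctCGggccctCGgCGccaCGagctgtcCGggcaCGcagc
STEAP2, second start: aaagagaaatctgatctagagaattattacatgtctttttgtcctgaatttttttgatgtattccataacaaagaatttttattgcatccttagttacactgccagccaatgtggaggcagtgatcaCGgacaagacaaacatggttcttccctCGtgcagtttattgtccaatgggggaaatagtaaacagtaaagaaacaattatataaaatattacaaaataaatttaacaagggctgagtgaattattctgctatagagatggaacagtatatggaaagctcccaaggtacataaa
The first window held 28 CG dinucleotides and 70.3% G or C, and the second held 2 and 33.7%. The median over 35116 promoter windows of the same length was 14 CG dinucleotides and 58.7% G or C. The FPKM value of the gene does not separate transcripts from the 2 starts.

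The STEAP1 window lies on the plus strand at chr7:90154219-90154518 and the STEAP1B window on the minus strand at chr7:22500139-22500438. In this pair capitals mark the bases that differ.
STEAP1: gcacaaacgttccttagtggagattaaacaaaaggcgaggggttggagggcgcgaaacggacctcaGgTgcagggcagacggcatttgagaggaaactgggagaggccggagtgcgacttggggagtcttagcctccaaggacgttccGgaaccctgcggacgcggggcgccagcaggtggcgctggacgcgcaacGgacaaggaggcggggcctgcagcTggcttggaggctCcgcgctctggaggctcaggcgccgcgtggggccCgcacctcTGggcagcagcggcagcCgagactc
STEAP1B: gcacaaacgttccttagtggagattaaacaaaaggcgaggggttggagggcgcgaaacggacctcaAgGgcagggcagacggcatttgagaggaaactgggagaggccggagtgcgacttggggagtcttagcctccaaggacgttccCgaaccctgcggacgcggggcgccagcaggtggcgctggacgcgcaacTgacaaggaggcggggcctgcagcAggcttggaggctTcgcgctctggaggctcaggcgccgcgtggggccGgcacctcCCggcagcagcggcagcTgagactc
Without gaps the 2 windows were the same at 290 of 300 positions, or 96.7%. Motifs were searched on both strands. TTCNNNGAA, a STAT palindrome found in 7.66% of all windows, and TGTTCT, an androgen response half-site found in 14.8%, were not among the letters of the windows of STEAP1, STEAP1B or either start of STEAP2. GGGCGG, the GC box found in 44.95% of windows, occurred in 1 place at the first start of STEAP2, and CCAAT, found in 34.6%, in 2 places at the second start. No match overlapped another.

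STEAP2 was the antigen that differed by more than 2-fold. STEAP2, a metalloreductase (ENSG00000157214.13_3, chromosome 7, 89796904 to 89867451, plus strand), measured 17.9 FPKM in the oe library, against 3.39 FPKM in the nc library. The log2 ratio was 2.11, which is 4.30-fold on the scale of FPKM + 1 and 5.28-fold as a plain ratio of FPKM. Its place by level among the 12075 listed genes was 2159 in the oe library and 7625 in the nc library. A log2 ratio at least as high was held by 169 of the 11126 genes, or 1.52%. Of all genes that passed the filter, 6.46% were 2-fold or more higher and 5.83% were 2-fold or more lower in the oe library. Of the 4 antigens 1 was past 2-fold on the higher side and 0 on the lower side. At a 1.5-fold size rule, which 15.3% of all genes passed as higher and 15.2% as lower, these counts were 1 and 0 again. In the authors' deposited table of higher genes STEAP2 had a log2 fold change of 2.11 and a p-value of 1, the p-value given there for every gene, and FOLH1, STEAP1 and EPCAM were in neither of the authors' deposited tables of genes past 1.5-fold.

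FOLH1, STEAP1 and EPCAM differed by less than 2-fold. FOLH1 (ENSG00000086205.16_2, chromosome 11, 49168187 to 49230222, minus strand) measured 125 FPKM in the oe library, against 173 FPKM in the nc library, a log2 ratio of -0.46. As a plain ratio, the oe level of FOLH1 was 0.723 of the nc level. STEAP1 (ENSG00000164647.8_2, chromosome 7, 89783689 to 89794143, plus strand) measured 134 FPKM in the oe library, against 152 FPKM in the nc library, a log2 ratio of -0.18. EPCAM (ENSG00000119888.10_2, chromosome 2, 47572297 to 47614740, plus strand) measured 43.1 FPKM in the oe library, against 44.9 FPKM in the nc library, a log2 ratio of -0.06. The sign for EPCAM flipped, at 0.06, when both libraries were scaled to an equal sum of FPKM.

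**Figure D1:**
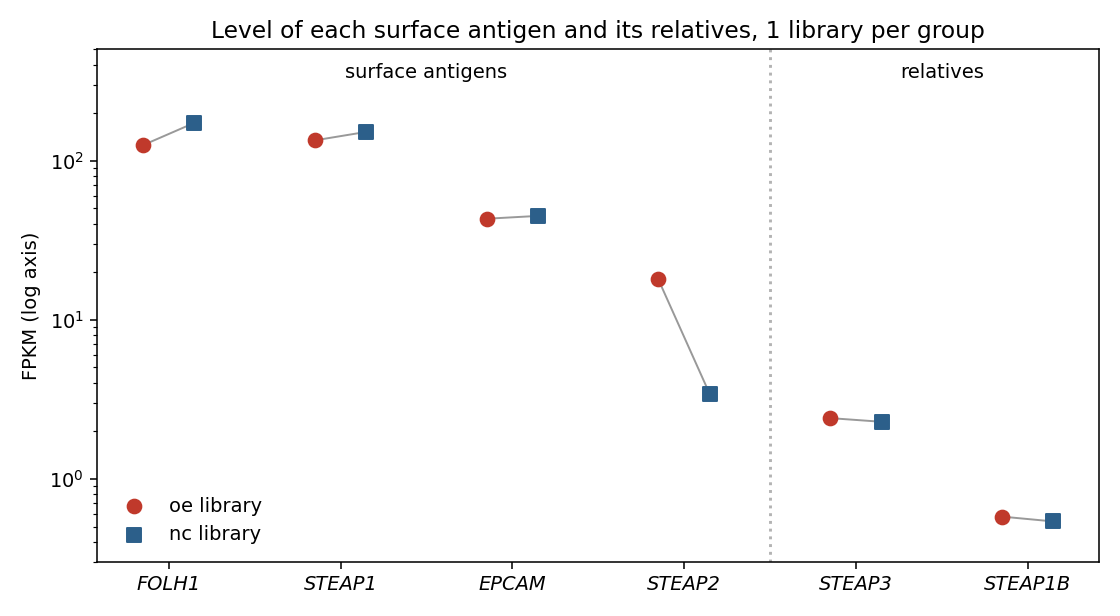
FPKM on a log axis of the 4 surface antigens and 2 relatives, 1 point per library, with the oe library as circles on the left and the nc library as squares on the right of each gene. STEAP2 is at 17.9 FPKM in the oe library and 3.39 FPKM in the nc library, while the points of each other gene lie close together.

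The order of levels differed at its top. In the oe library the order was STEAP1, FOLH1, EPCAM and STEAP2, and in the nc library FOLH1, STEAP1, EPCAM and STEAP2. FOLH1 was at 0.933 of the STEAP1 level in the oe library and at 1.14 times it in the nc library, and with 1 library each this difference in order cannot be set against any spread. EPCAM was at 2.41 times the STEAP2 level in the oe library and at 13.2 times it in the nc library. FOLH1 and STEAP1 were among the most abundant listed genes, at places 172 and 154 in the oe library and 153 and 180 in the nc library. STEAP2 made up 5.59% of the summed FPKM of the 4 antigens in the oe library and 0.909% in the nc library.

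The most abundant genes mostly had log2 ratios below 0. Among 276 genes with a mean of at least 100 FPKM over both libraries the median log2 ratio was -0.37, with a middle 50% of genes from -0.59 to -0.06, and 77.9% were below 0. FOLH1 and STEAP1 belong to this band, where 99 genes had a lower and 176 a higher log2 ratio than FOLH1, and 189 a lower and 86 a higher one than STEAP1. EPCAM and STEAP2 belong to the band from 10 to 100 FPKM, of 3673 genes with a median of -0.16, in which 67 genes had a higher log2 ratio than STEAP2.

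**Figure D2:**
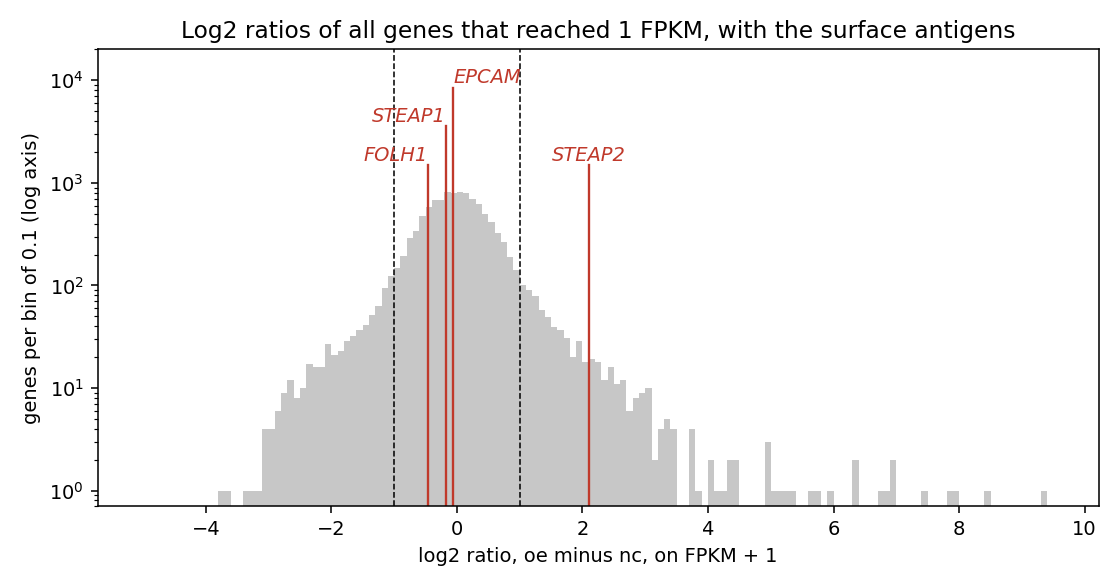
Histogram of the log2 ratio (oe minus nc, on FPKM + 1) of the 11126 genes that passed the filter, with the number of genes on a log axis. Red lines mark the antigens and dashed lines a 2-fold difference. FOLH1 at -0.46, STEAP1 at -0.18 and EPCAM at -0.06 lie in the centre, and STEAP2 at 2.11 lies beyond the 2-fold line.

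The close relatives of the antigens were at low levels and differed little. STEAP3, the metalloreductase of erythroid iron uptake, measured 2.40 FPKM in the oe library and 2.28 FPKM in the nc library (log2 ratio 0.05). STEAP1B measured 0.577 FPKM in the oe library and 0.538 FPKM in the nc library, under the filter of 1 FPKM. Of the summed FPKM of STEAP1, STEAP2, STEAP3 and STEAP1B, which was 155 in the oe library and 158 in the nc library, STEAP1 held 86.5% and STEAP2 11.5% in the oe library, against 96.1% and 2.15% in the nc library. FOLH1B, the near copy of FOLH1, was not analysed here.

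Reads of near copies could not be told apart to the same extent for each antigen. In the longest protein-coding transcript of GENCODE 29, 41.8% of the 50-base words of FOLH1 also occurred in transcripts of other genes, nearly all in FOLH1B. For STEAP1 the share was 22.1%, with STEAP1B as the single other gene. For EPCAM it was 2.57% and for STEAP2 1.82%. The FOLH1 and STEAP1 levels are therefore uncertain by however the authors' counting divided such reads, which was not tested. STEAP2-AS1, a noncoding gene of the opposite strand, overlaps both STEAP1 and STEAP2 in GENCODE 29. The labels name a stranded library kit but do not state whether counting used the strand, so reads of STEAP2 and STEAP2-AS1 may not be told apart. STEAP2 had 9 protein-coding transcripts of 579 to 7033 bases there, against a single one of 1313 bases for STEAP1, and FPKM divides by a transcript length that depends on the transcripts chosen.

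STEAP1 and STEAP2 are neighbours on the same strand. The deposited coordinates (build GRCh37, inferred from the identifiers) leave 2.76 kb between the end of STEAP1 and the start of STEAP2, and their deposited starts lie 13.2 kb apart. The RefSeq starts of both genes lie 57.3 kb apart in GRCh38.p14, so the first STEAP2 start whose window is printed is not the start of the deposited STEAP2 locus. The log2 ratio was -0.18 for STEAP1 and 2.11 for STEAP2. The next listed genes after STEAP2 also had positive log2 ratios. CFAP69, a cilia and flagella protein that starts 77.6 kb after the STEAP2 start, measured 4.79 FPKM in the oe library and 2.06 FPKM in the nc library (log2 ratio 0.92). GTPBP10, a GTPase of mitochondrial ribosome assembly, measured 5.85 FPKM in the oe library and 1.95 FPKM in the nc library (1.22). CLDN12, a tight junction claudin, measured 40.3 FPKM in the oe library and 5.40 FPKM in the nc library (2.69). CLDN12 and CDK14 were singled out after their values were seen. CDK14, a cyclin-dependent kinase, had a log2 ratio of 0.46. The CLDN12 locus as deposited overlaps GTPBP10 by 7735 bases and CDK14 by 46979 bases on the same strand, so part of these reads may be shared. STEAP2 overlaps no listed gene.

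The region was then described by distance from STEAP2. All 5 genes that start from the STEAP2 start to 300 kb after it, STEAP2 itself included, had log2 ratios above 0. The 3 that were at least 2-fold higher in the oe library were STEAP2, GTPBP10 and CLDN12. STEAP2 was the gene around which the window was set, so its own value adds nothing to the count. The 300 kb limit was set after the values were seen and was given no test. Of the 6 genes that start more than 100 kb and up to 3 Mb before STEAP2, 0 had a log2 ratio above 0, with a range of -0.78 to -0.26. Of the 12 that start more than 300 kb and up to 3 Mb after it, 8 were above 0. None of these 12 was past 2-fold, with a range of -0.73 to 0.90. STEAP1, at -0.18, starts less than 100 kb before STEAP2 and is in none of these groups. The nearest listed gene before STEAP1 was SRI, a calcium-binding protein, with a gap of 1927 kb between the 2 genes. SRI measured 6.65 FPKM in the oe library and 10.3 FPKM in the nc library.

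**Figure D3:**
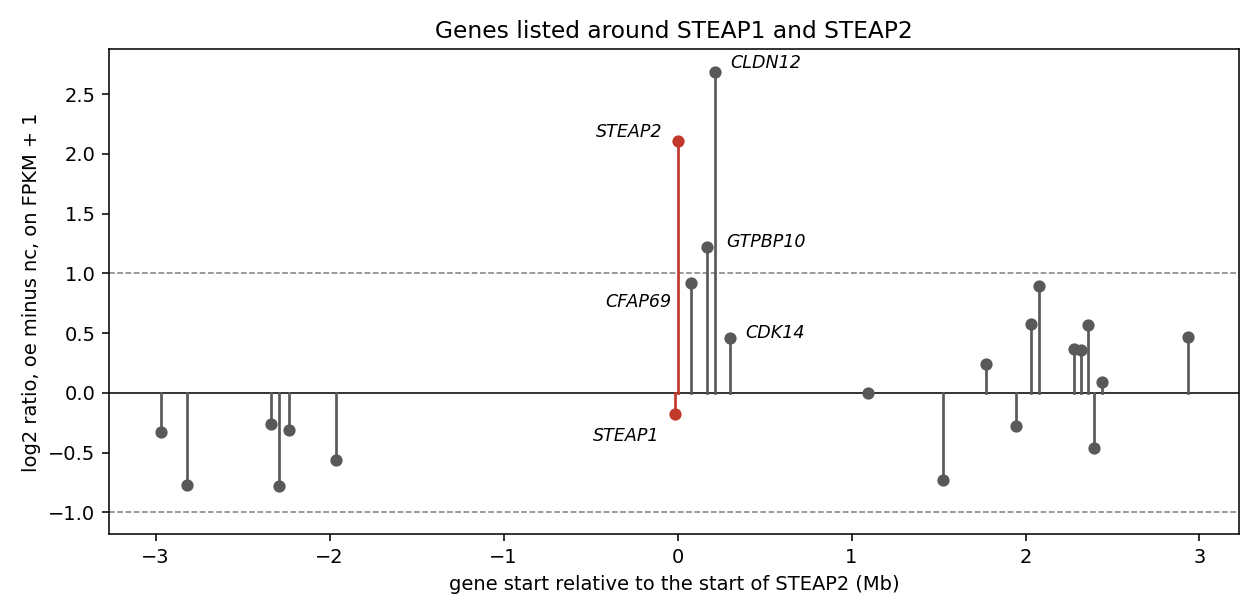
Log2 ratio (oe minus nc, on FPKM + 1) of the 24 listed genes that start within 3 Mb of the STEAP2 start, by distance of the starts in Mb, with STEAP1 and STEAP2 in red and dashed lines at a 2-fold difference. STEAP2, GTPBP10 and CLDN12 pass the upper line, and STEAP1, next to STEAP2, is at -0.18.

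The neighbours of the other antigens differed from them in level. MSH6, of DNA mismatch repair, lies after EPCAM and measured 1.33 FPKM in the oe library and 3.93 FPKM in the nc library (log2 ratio -1.08). Before EPCAM lay CALM2, a calmodulin gene, with a log2 ratio of -0.25, and TTC7A, with one of 0.27. The listed gene nearest to FOLH1 was PTPRJ, a receptor phosphatase 976 kb away, with a log2 ratio of 0.21.

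The genes most like each antigen were those at the smallest distance over log2(FPKM + 1) in both libraries, a likeness over 2 values. For STEAP2 these were BHLHE40, at 16.8 FPKM in the oe library and 3.65 FPKM in the nc library, RNF19A, at 17.5 FPKM and 3.03 FPKM in the oe and nc libraries, and GALNT18, at 16.3 FPKM and 3.09 FPKM, with distances of 0.12, 0.13 and 0.16. For FOLH1 they included OAZ1 and EID1, and they were for STEAP1 ARF1, SEC61B and RPLP0, and for EPCAM SRXN1, UFC1 and AP2M1, with distances from 0.04 to 0.08.

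Other surface proteins that are targeted or studied as targets in prostate and other carcinomas divided in both directions. Of 33 listed genes 10 were not analysed here. Of the 23 measured, 8 were past 2-fold on the higher side in the oe library, 3 were past it on the lower side and 12 lay between. Their median log2 ratio was 0.40. Over all genes that passed the filter the shares past 2-fold were 6.46% on the higher side and 5.83% on the lower side. ICAM1, an adhesion receptor of leukocytes, measured 57.6 FPKM in the oe library and 0.889 FPKM in the nc library. SLC44A4, a choline transporter-like protein and antibody-drug conjugate target, measured 144 FPKM in the oe library and 42.6 FPKM in the nc library (log2 ratio 1.73). CD276, the B7-H3 checkpoint molecule, measured 12.9 FPKM in the oe library and 3.47 FPKM in the nc library. MUC1, a membrane mucin, measured 2.90 FPKM in the oe library and 0.465 FPKM in the nc library. ICAM1, MUC1 and ROR1 were under 1 FPKM in the nc library, so that the oe library alone carried them past the filter, and without them 5 were past 2-fold on the higher side.

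The targets past 2-fold on the lower side were KLK2, DLL3 and PSCA. KLK2, a secreted kallikrein also targeted at the cell surface, measured 12.7 FPKM in the oe library and 93.4 FPKM in the nc library. DLL3, a Notch ligand and target in neuroendocrine tumours, measured 2.00 FPKM in the oe library and 6.35 FPKM in the nc library. PSCA, prostate stem cell antigen, measured 1.96 FPKM in the oe library and 5.41 FPKM in the nc library. In the oe library SLC44A4 was thus above FOLH1, at 125 FPKM, and STEAP1, at 134 FPKM, and in the nc library it was below both.

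Genes of iron, copper and NADPH handling, the substrates and cofactor of STEAP metalloreductases, mostly differed by less than 2-fold. Of 22 measured genes 3 were past 2-fold on the higher side in the oe library, 0 on the lower side and 19 lay between. Their median log2 ratio was 0.06. The shares over all genes that passed the filter were 6.46% higher and 5.83% lower. SLC39A14, a zinc and iron importer, measured 20.8 FPKM in the oe library and 4.49 FPKM in the nc library (1.99). FTH1, the ferritin heavy chain that stores iron, measured 1306 FPKM in the oe library and 472 FPKM in the nc library (1.47). The transferrin receptor TFRC, at 45.4 FPKM in the oe library and 39.95 FPKM in the nc library, and the copper importer SLC31A1, at 28.6 FPKM and 22.1 FPKM in the oe and nc libraries, differed by less than 2-fold.

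Genes of folate use were set beside FOLH1. Of 17 measured genes 0 were past 2-fold on the higher side in the oe library and 2 on the lower side. Their median log2 ratio was -0.41, beside -0.46 for FOLH1. Over all genes that passed the filter, 6.46% were past 2-fold on the higher side and 5.83% on the lower side. TYMS, thymidylate synthase, which also serves DNA synthesis in dividing cells, was among the lower genes, at 6.68 FPKM in the oe library and 37.3 FPKM in the nc library. GGH, which like FOLH1 removes glutamates from folates but in the lysosome, measured 4.62 FPKM in the oe library and 9.57 FPKM in the nc library (-0.91).

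A list of EPCAM partners, cleaving enzymes and other epithelial genes was set beside EPCAM, which had a log2 ratio of -0.06. Of 25 measured genes 3 were past 2-fold on the higher side in the oe library and 0 on the lower side (median log2 ratio 0.31). Among all genes that passed the filter, 6.46% were past 2-fold on the higher side and 5.83% on the lower side. ELF3, an ETS protein of epithelia, measured 29.1 FPKM in the oe library and 2.52 FPKM in the nc library (3.10). CLDN4, a tight junction claudin, measured 43.4 FPKM in the oe library and 5.93 FPKM in the nc library (2.68). BACE2, a membrane protease, measured 5.25 FPKM in the oe library and 0.127 FPKM in the nc library (2.47). CLDN7, the claudin that binds EPCAM, measured 67.2 FPKM in the oe library and 60.5 FPKM in the nc library (0.15). On the lower side, 2 genes of the list fell just short of 2-fold. CD9 measured 54.3 FPKM in the oe library and 109.6 FPKM in the nc library (-0.999). CLDN3 measured 25.4 FPKM and 50.5 FPKM in the oe and nc libraries (-0.96). BACE2 was under 1 FPKM in the nc library, so that the oe library alone carried it past the filter, and with 1 FPKM in both libraries 2 genes were past 2-fold on the higher side (median log2 ratio 0.27).

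Genes induced by androgen lay mostly on the other side from STEAP2. Of 21 measured genes on the list of androgen-induced genes and their regulators, which holds STEAP2, 11 were past 2-fold on the lower side in the oe library and 2, STEAP2 among them, on the higher side. The median log2 ratio was -1.09, and -1.16 without STEAP2. Among all genes that passed the filter, 5.83% were past 2-fold on the lower side and 6.46% on the higher side. KLK3, which encodes prostate-specific antigen, measured 77.6 FPKM in the oe library and 358 FPKM in the nc library (-2.19). SLC45A3, also called prostein, measured 12.1 FPKM in the oe library and 67.96 FPKM in the nc library (-2.40), and TMPRSS2, a surface protease, at 9.22 FPKM and 49.3 FPKM (-2.30) in the oe and nc libraries. The list of cytokine signalling that is known to induce STEAP4 in other cells had 8 of 15 measured genes past 2-fold on the higher side and 0 on the lower side (median log2 ratio 1.02). With 1 FPKM in both libraries 6 genes were past 2-fold on the higher side (median log2 ratio 0.98), since TNFAIP3 and SOCS3 passed the filter by their oe values alone. TNFAIP3, an inhibitor of NF-kappaB, measured 21.4 FPKM in the oe library and 0.621 FPKM in the nc library. CEBPD, of the C/EBP family, measured 58.3 FPKM in the oe library and 7.46 FPKM in the nc library. SOCS3, a feedback inhibitor of cytokine receptors, measured 4.42 FPKM in the oe library and had a listed value of 0 in the nc library. NFKB1, an NF-kappaB subunit, measured 37.3 FPKM and 7.01 FPKM in the oe and nc libraries.

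**Figure D4:**
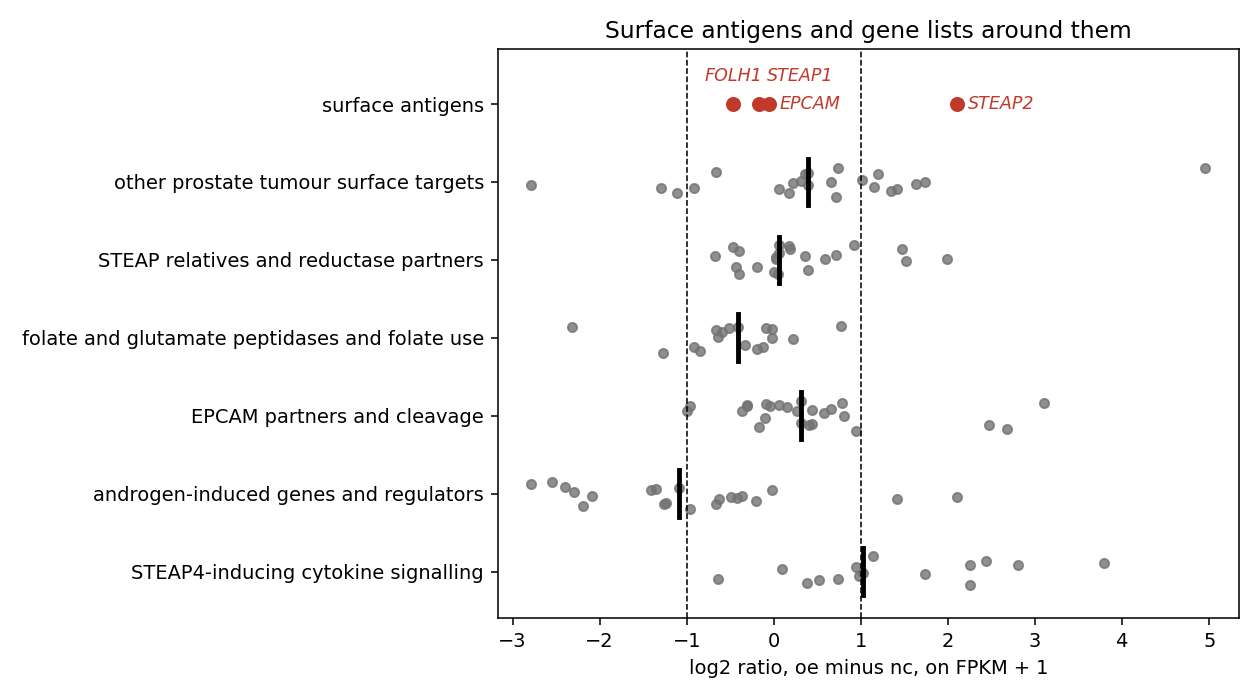
Log2 ratio (oe minus nc, on FPKM + 1) of the 4 surface antigens (red) and of the measured genes of 6 lists (grey, 1 point per gene, spread vertically for legibility), with the median of each list as a black bar and dashed lines at a 2-fold difference. FOLH1, STEAP1 and EPCAM lie between the lines, STEAP2 lies at 2.11, and the medians run from -1.09 for the androgen list to 1.02 for the cytokine list.

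Markers of luminal prostate epithelium were listed in both libraries, 10 of 10, with summed levels of 354 FPKM in the oe library and 1019 FPKM in the nc library. Of 15 macrophage and leukocyte markers 12 were not analysed here. The 3 others, CD68, ITGAM and LYZ, summed to 7.12 FPKM in the oe library and 0.678 FPKM in the nc library, and none was at 0. PTPRC, CD14 and CSF1R were among those not analysed here. CD68, at 4.18 FPKM in the oe library and 0.632 FPKM in the nc library, and ITGAM, at 2.34 FPKM and 0.00787 FPKM in the oe and nc libraries, were past 2-fold on the same side as STEAP2, both by way of the oe library alone. LYZ was under the filter of 1 FPKM. The part of these markers in the difference of STEAP2 was not tested. In bulk RNA, fewer cells of a type and less RNA per cell cannot be told apart. Of 4 basal, 6 fibroblast and 4 endothelial markers, COL1A1, at 2.78 FPKM in the oe library and 2.12 FPKM in the nc library, and VWF, at 0.617 FPKM and 0.275 FPKM in the oe and nc libraries, were measured, and the rest were not analysed here.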

How the data were processed

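RNA-seq of LNCaP cells was compared between 2 libraries, grouped by their titles. Per the labels' protocols, poly(A) selection, ribosomal RNA depletion and stranded preparation kits were named together. An adipogenic protocol in the same labels played no part here. Expression was deposited as FPKM, and the submitters' processing notes name StringTie 2.1.0. For the aligner, nothing is given in the sources used here. The notes name the mouse build mm10, but identifiers are human, and 11946 of 12075 carry the suffix of GENCODE annotation mapped to GRCh37, so that build is inferred. The table held 12075 protein-coding genes, each with 0.50 FPKM or more in its higher library. The authors' deposited tables of changed genes gave a log2 fold change, a fold change as a linear ratio on FPKM + 1, and p-values and q-values that were all 1 and were not used.

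A pseudocount of 1, a filter of 1 FPKM in the higher library and a 2-fold size rule were applied with Python 3.11.15 and pandas 2.3.3, after a test on simulated data. A step of 1 read could not be read from ratios of low values (793 distinct ratios to 3 decimals among 925 genes under 1 FPKM). The depth therefore stayed unknown. The antigens and the 6 gene lists were chosen with earlier results of these data known. Named were the antigens, their relatives, the 4 genes farthest past 2-fold in each direction of a list, where so many were, 2 listed neighbours on each side and the 3 genes nearest in level. ROR1, GGH, CLDN7, CD9, CLDN3, TFRC, SLC31A1, CLDN12 and CDK14 were looked at outside that rule. Some genes named by the rule are not reported here. Alternatives were pseudocounts of 0.1 and 5, 3 scalings, 3 filters and a 1.5-fold size rule. Sequences came from RefSeq (GRCh38.p14).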

Additional observations from a re-analysis of the deposited data

How the results depend on the processing

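The count of antigens past the size rule, 1 higher in the oe library and 0 lower, was the same under the 5 other pseudocounts and scalings and the 1.5-fold rule. The log2 ratio of STEAP2 ran from 1.45 with a pseudocount of 5 to 2.37 with one of 0.1, which is 2.73-fold and 5.16-fold on those scales, against 4.30-fold as reported. FOLH1 ran from -0.47 to -0.34 and STEAP1 from -0.19 to -0.05, below 0 under each of the 5 other pseudocounts and scalings, and EPCAM from -0.07 to 0.06, above 0 under 1 of the 5. The filters leave a log2 ratio as it is, and none removed an antigen. Scaling to the same sum moved the median of all genes from -0.01 to 0.09. Of 144 recomputed list values 132 stayed on their side and within 1.5 times, 12 did not, and 0 of those past 2-fold changed sign. The other surface targets, with 8 higher and 3 lower genes, had 3 and 1 with a pseudocount of 5, and 5 higher with 1 FPKM in both libraries. The cytokine list had 5 higher genes with a pseudocount of 5, against 8. Its median fell short of 2-fold at 0.87 with that pseudocount and at 0.98 with 1 FPKM in both libraries, and the androgen list's at -0.76 with that pseudocount and at -0.98 with equal sums. With a pseudocount of 0.1 the folate list had 4 lower genes, against 2. The list around EPCAM had 5 higher with that pseudocount, against 3, and 1 lower, against 0. With equal medians the list around EPCAM also had 1 lower. The causes were not tested. No paired analysis was possible because each group has 1 library. Leaving out a library leaves no comparison, and single FPKM values without read counts carry no interval.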
